A study of Mus musculus with 6 samples.

Results

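The genes described here encode the core of Polycomb repressive complex 1 (PRC1) in cultured mouse pro-B cells. They are the RING subunits Ring1 and Rnf2, the PCGF subunits Bmi1, Pcgf1, Pcgf2, Pcgf3, Pcgf5 and Pcgf6, and the adaptors Rybp and Yaf2. They were chosen by gene symbol, and all 10 were found among the 22551 distinct symbols of the expression matrix, each in 1 row. RNA was sequenced from 6 cultures of pro-B colonies, the early B-lineage precursors, grown from bone marrow in B-cell methylcellulose for 1 week and taken at passage 1. The titles assign 3 libraries to Ts1Rhr mice, which carry an extra copy of a chromosome 16 segment orthologous to part of human 21q22, and 3 to wild-type mice. The genotype field of the labels reads Ts1Rhr for all 6. No agent or treatment other than the culture is given, the animals' age is not given in the sources used here, and nothing says whether a library is 1 animal or a pool.

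The matrix heads its columns p1A1, p1A2, p1A3, p1C1, p1C2 and p1C3. The p1 and the last digit match the passage and replicate numbers of the titles, but the letter is not explained. The 6 columns are therefore described as pro-B passage 1 libraries of both genotypes together, with no comparison of Ts1Rhr with wild type. Values are FPKM, fragment counts scaled by the authors to transcript length and to each library's mapped fragments, which puts different genes on a common scale. An error in a gene's level that all 6 libraries share would remain in comparisons between genes. Neither the spread between libraries nor a test over libraries measures such an error.

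PRC1 attaches a single ubiquitin to histone H2A through RING1 or RNF2, and every complex pairs one of these with one PCGF protein, which sets the form of the complex. Canonical PRC1 is built on BMI1 or PCGF2 with a CBX protein, which reads histone H3 trimethylated at Lys27, and a PHC protein. Variant PRC1 holds RYBP or YAF2 in place of CBX, may use any PCGF protein, and does most of the ubiquitin deposition in mouse embryonic stem cells. In blood, Bmi1 is known for stem-cell self-renewal and for silencing the Ink4a-Arf locus, including in the B lineage.

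Transcripts of all the core subunits were present in the cultures. All 10 genes read at least 1 FPKM in all 6 libraries, a level that 45.7% of all symbols reached. Rnf2 and Bmi1 were the most abundant, at medians of 20.2 and 19.8 FPKM, and Pcgf2 was the least abundant at 2.01 FPKM. The median over the 10 genes' medians was 8.48 FPKM, against 12.1 FPKM over the 10302 symbols that reached the same level. At 2 FPKM in all libraries 9 of the 10 genes remained, where 41.7% of all symbols did, and at 5 FPKM 8 of the 10, where 33.1% did. Pcgf2 dropped out at the lower of these levels and Pcgf1 at the higher.

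The label of the cultures was checked against markers. All 11 B-lineage markers reported, among them Vpreb1, Igll1, Rag1 and Pax5, read above 1 FPKM in every library. Their summed level ran between 1435 FPKM in p1A2 and 2099 FPKM in p1C2. Myeloid markers were also present, with all 5 of those in the matrix above 1 FPKM in every library and a sum between 2558 FPKM in p1C1 and 4621 FPKM in p1A2. Lyz2, the lysozyme of macrophages and granulocytes, made up most of that sum, at 2457 to 4437 FPKM. None of the 4 erythroid, 4 T-cell or 4 stromal markers reached 1 FPKM in all libraries, with sums of 0.275 to 0.640, 0.673 to 2.75 and 1.61 to 6.89 FPKM. Of 4 mast-cell and basophil markers Mcpt8 did, with a sum of 2.87 to 6.78 FPKM, and of 3 mature B-cell markers Ms4a1 did, with a sum of 15.7 to 46.0 FPKM. Library p1A2 stood apart in its markers, with the lowest B-lineage sum and the highest myeloid sum. Of the B-lineage markers, Il7r and Cd93 were instead highest in p1A2, at 98.0 and 92.8 FPKM, and the others were lowest there. The highest Pearson r of p1A2 with any other library across detected genes was 0.989, against 0.990 to 0.995 for the other 5 libraries. The lowest r, 0.971, was that of p1A2 with p1A3, whose highest was 0.990. The correlations thus did not set p1A2 apart from p1A3. By Dixon's test at the 95% level no library was an outlier in any of the 10 genes or 5 ratios. The low Yaf2 value of p1A2 came closest, with a gap over range of 0.605 against a critical value of 0.625. The PRC1 levels are thus levels in RNA of mixed cultures, and fewer cells of a type cannot be told apart from less RNA per cell.

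Of the RING ubiquitin ligases, Rnf2 (also called Ring1b) supplied most of the transcript. Ring1 read 6.12, 6.21, 7.47, 6.46, 7.95 and 5.78 FPKM in p1A1, p1A2, p1A3, p1C1, p1C2 and p1C3. Rnf2 read 20.1, 17.9, 21.5, 20.6, 19.7 and 20.2 FPKM in the same libraries. The ranges of the genes did not overlap, and Ring1 was highest in p1C2 and p1A3. Within libraries Ring1 was below Rnf2 by a mean log2 ratio of -1.58 ± 0.18 (SD, n = 6), which makes Rnf2 2.98-fold the higher. The sign was the same in 6 of 6 libraries (exact two-sided sign-flip permutation test, p = 0.03125, the smallest that 6 libraries allow; Benjamini-Hochberg over the 5 pairs tested, 0.03125). Any pair of genes with the same gene higher in all 6 libraries gives this p-value, so it is not particular to paralogues. Rnf2 accounted for 71.2% to 77.8% of the summed RING transcript. In the GRCm38 annotation Ring1 lies on chromosome 17 from 34020792 to 34024680, minus strand, within the major histocompatibility complex. Rnf2 lies on chromosome 1 from 151458004 to 151500955, minus strand, and its last 158 bases overlap the end of Trmt1l on the opposite strand. A gene model of unproven coding status, Gm36527, covers 3029 bases of its span on the same strand. Whether the counting used strand is not given in the sources used here.

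**Figure D1:**
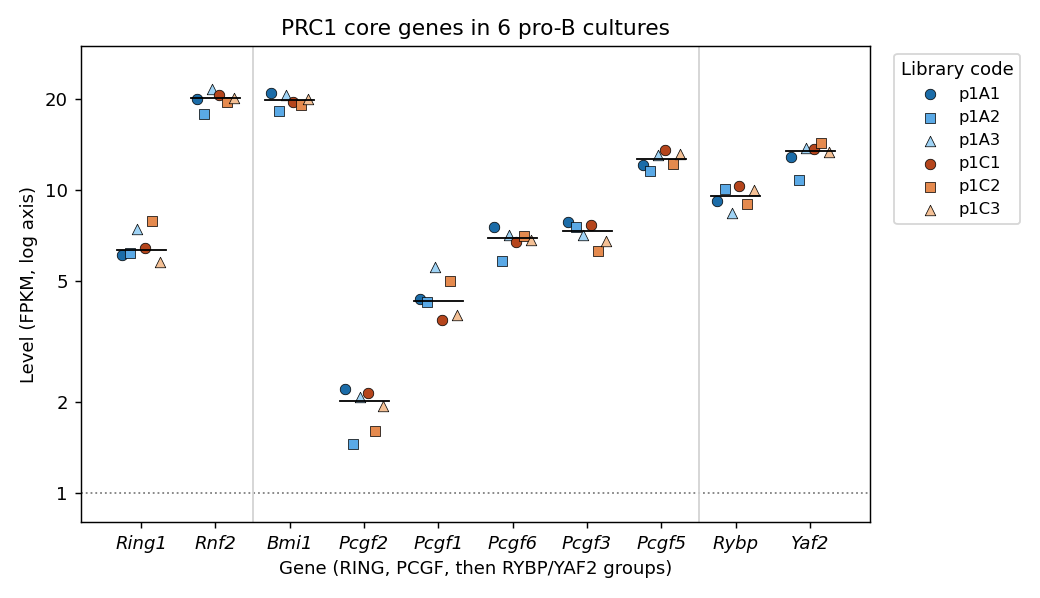
Level of each core gene on a log axis in FPKM, with 1 point per library and a bar at the median of 6 libraries. Rnf2 and Bmi1 sit near 20 FPKM in all 6 libraries, Pcgf2 between 1.45 and 2.20 FPKM, and the dotted line marks 1 FPKM.

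Of the PCGF subunits that canonical PRC1 uses, Bmi1 (also called Pcgf4) was the main one. It read 21.0, 18.2, 20.7, 19.6, 19.1 and 20.1 FPKM in p1A1, p1A2, p1A3, p1C1, p1C2 and p1C3. Pcgf2, which encodes the close relative MEL18, read 2.20, 1.45, 2.08, 2.13, 1.61 and 1.94 FPKM in the same libraries. Both genes were lowest in p1A2 and highest in p1A1. The mean log2 ratio of Bmi1 to Pcgf2 was 3.33 ± 0.17 (SD, n = 6), 10.0-fold, and Bmi1 was the higher in 6 of 6 libraries (exact two-sided sign-flip permutation test, p = 0.03125; Benjamini-Hochberg over the 5 pairs, 0.03125). This was the widest of the 5 paralogue ratios. Bmi1 had the narrowest spread of the 10 genes, with a highest library 1.15-fold the lowest. Bmi1 lies on chromosome 2 from 18677018 to 18686629, plus strand, and Pcgf2 on chromosome 11 from 97688823 to 97700497, minus strand. No other annotated gene overlaps either of them.

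PCGF1 and PCGF6 define the variant forms that are built with KDM2B and BCOR and with MGA and L3MBTL2. Pcgf1 read 4.36, 4.29, 5.59, 3.72, 5.01 and 3.88 FPKM in p1A1, p1A2, p1A3, p1C1, p1C2 and p1C3. Pcgf6 read 7.54, 5.83, 7.14, 6.75, 7.09 and 6.84 FPKM in those libraries. Pcgf1 was the lower in every library, though its highest value, 5.59 FPKM in p1A3, came close to the lowest of Pcgf6, 5.83 FPKM in p1A2. The mean log2 ratio of Pcgf1 to Pcgf6 was -0.62 ± 0.22 (SD, n = 6), which makes Pcgf6 1.53-fold the higher (exact two-sided sign-flip permutation test, p = 0.03125; Benjamini-Hochberg over the 5 pairs, 0.03125). Pcgf1 lies on chromosome 6 from 83077869 to 83080855, plus strand. With 918 nt, its longest annotated transcript is the shortest of the 10 genes. Pcgf6 lies on chromosome 19 from 47033617 to 47050906, minus strand.

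PCGF3 and PCGF5 stand in a shared variant form, with casein kinase 2 and AUTS2 or the fibrosin proteins. Pcgf3 read 7.85, 7.59, 7.13, 7.69, 6.28 and 6.78 FPKM in p1A1, p1A2, p1A3, p1C1, p1C2 and p1C3. Pcgf5 read 12.1, 11.5, 13.1, 13.6, 12.3 and 13.2 FPKM in them. The lowest Pcgf5 library was above the highest Pcgf3 library. The mean log2 ratio of Pcgf3 to Pcgf5 was -0.80 ± 0.16 (SD, n = 6), with Pcgf5 1.74-fold the higher and the sign shared by 6 of 6 libraries (exact two-sided sign-flip permutation test, p = 0.03125; Benjamini-Hochberg over the 5 pairs, 0.03125). Pcgf3 lies on chromosome 5 from 108461232 to 108506976, plus strand. Pcgf5 lies on chromosome 19 from 36348309 to 36460970, plus strand, and spans annotated pseudogenes and an antisense gene, so its reads could be shared with them.

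**Figure D2:**
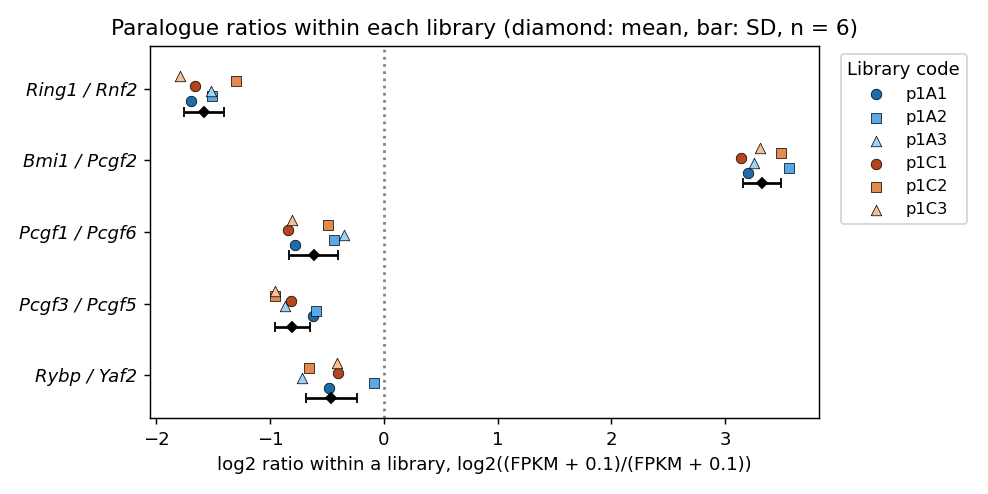
Log2 ratio of the paralogues of each pair within each library, on the log2((FPKM + 0.1)/(FPKM + 0.1)) scale, with 1 point per library, a diamond at the mean and a bar of 1 SD (n = 6). Bmi1 over Pcgf2 is the only ratio above 0, and the Rybp over Yaf2 ratio of p1A2, -0.09, is the point nearest to 0.

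RYBP and its relative YAF2 take the place of CBX in variant PRC1, and RYBP is known to bind ubiquitinated H2A. Rybp read 9.22, 10.1, 8.40, 10.3, 9.04 and 10.0 FPKM in p1A1, p1A2, p1A3, p1C1, p1C2 and p1C3. Yaf2 read 12.9, 10.8, 13.8, 13.7, 14.3 and 13.4 FPKM in the same libraries. Yaf2 was the higher in every library, but in p1A2 the genes were nearly level. The mean log2 ratio of Rybp to Yaf2 was -0.46 ± 0.22 (SD, n = 6), the smallest of the 5, and Yaf2 was 1.38-fold the higher (exact two-sided sign-flip permutation test, p = 0.03125; Benjamini-Hochberg over the 5 pairs, 0.03125). Without p1A2, the library that stood apart in its markers, the ratio was -0.53. Yaf2 made up 51.5% of the summed Rybp and Yaf2 transcript in p1A2 and 62.2% in p1A3. Rybp lies on chromosome 6 from 100228565 to 100287485, minus strand, and has a transcribed pseudogene inside its span on the other strand. The gene models Gm44045 and Gm44044 cover 2520 and 1089 bases of its span on the same strand. Yaf2 lies on chromosome 15 from 93284278 to 93336935, minus strand.

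In descending order of median the genes ran Rnf2, Bmi1, Yaf2, Pcgf5, Rybp, Pcgf3, Pcgf6, Ring1, Pcgf1 and Pcgf2. Of the 9 steps between neighbours, 4 had overlapping ranges. Rnf2 was above Bmi1 in 4 of 6 libraries and Yaf2 above Pcgf5 in 5 of 6. Pcgf3 was above Pcgf6 in 3 of 6 libraries and Pcgf6 above Ring1 in 3 of 6, so the order of Pcgf3, Pcgf6 and Ring1 was not resolved. The other 5 steps separated without overlap.

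As a pool, the 6 PCGF genes kept nearly the same make-up in every library. Bmi1 held 36.6% to 38.2% of the summed PCGF transcript and Pcgf2 2.97% to 3.99%. The PCGF genes found also in canonical PRC1, Bmi1 and Pcgf2, thus held 40.2% to 42.2%. Pcgf5 held 22.0% to 25.5% and Pcgf3 12.2% to 15.5%, so the PCGF3 and PCGF5 form held 36.1% to 39.8%. Pcgf6 held 11.9% to 13.8%. Pcgf1 held the most variable share for its size, 6.96% in p1C1 and 10.0% in p1A3. The summed PCGF transcript was 1.86 to 2.10 times the summed RING transcript, and the summed Rybp and Yaf2 transcript was 0.767 to 0.898 times it. These are ratios of RNA, and neither protein nor assembled complexes were measured.

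**Figure D3:**
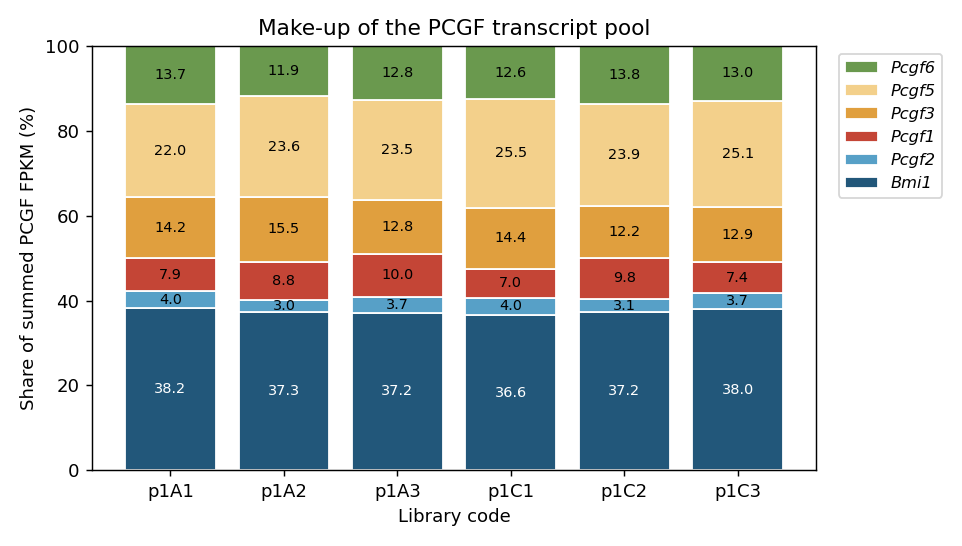
Share of the summed PCGF FPKM, in percent, held by each of the 6 PCGF genes in each library, stacked to 100%. Bmi1 forms the largest block in all 6 libraries, 36.6% to 38.2%, and Pcgf2 the smallest.

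The partners that complete each form were then counted at the same level of 1 FPKM in all 6 libraries, which 45.7% of all symbols reached. For canonical PRC1, 8 of the 9 partners reported reached it. Phc2, a subunit that polymerises to cluster PRC1, was the highest of them at a median of 29.2 FPKM, with Phc1 at 11.5 and Phc3 at 4.02 FPKM. Among CBX readers Cbx6 had a median of 12.0 FPKM, Cbx2 10.2, Cbx7 4.28 and Cbx8 1.98 FPKM. Scmh1, a sterile alpha motif partner, had a median of 11.6 FPKM. The exception, Scml2, read at most 0.0547 FPKM in any library.

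For the PCGF1 form 4 of 5 partners reached 1 FPKM throughout. Kdm2b, whose product carries the complex to unmethylated CpG islands, had a median of 16.9 FPKM and Bcor, its scaffold, 12.6 FPKM. Skp1a and Usp7, which also serve other complexes, had medians of 88.2 and 54.0 FPKM. Bcorl1, the paralogue of Bcor, read 0.880 to 1.38 FPKM and missed the level in p1C2 alone.

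All 6 partners of the PCGF3 and PCGF5 form reached it. The casein kinase 2 genes Csnk2b, Csnk2a1 and Csnk2a2 had medians of 75.7, 44.3 and 10.2 FPKM. Of the related AUTS2 and fibrosin genes, Fbrs had a median of 26.2 FPKM, Fbrsl1 3.85 and Auts2 1.23 FPKM. Auts2 read 1.01 FPKM in its lowest library, just above the level.

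For the PCGF6 form all 10 partners reached it. Mga, the large scaffold that binds DNA with MAX, was the lowest at a median of 5.33 FPKM, below its partner Max at 43.3 FPKM. L3mbtl2 and E2f6, both found in this form, had medians of 12.5 FPKM each. Cbx3, a heterochromatin protein shared with other complexes, was the highest at 197 FPKM. Among genes whose products remove the ubiquitin from H2A, or assist in it, 5 of 6 reached the level. Bap1, the deubiquitinase, had a median of 32.2 FPKM, Usp16 13.3 and Mysm1 5.93 FPKM. The BAP1 cofactor genes Asxl1 and Asxl2 had medians of 14.2 and 7.48 FPKM. Asxl3 was listed at 0 in all libraries but p1C1, where it read 0.00237 FPKM.

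**Figure D4:**
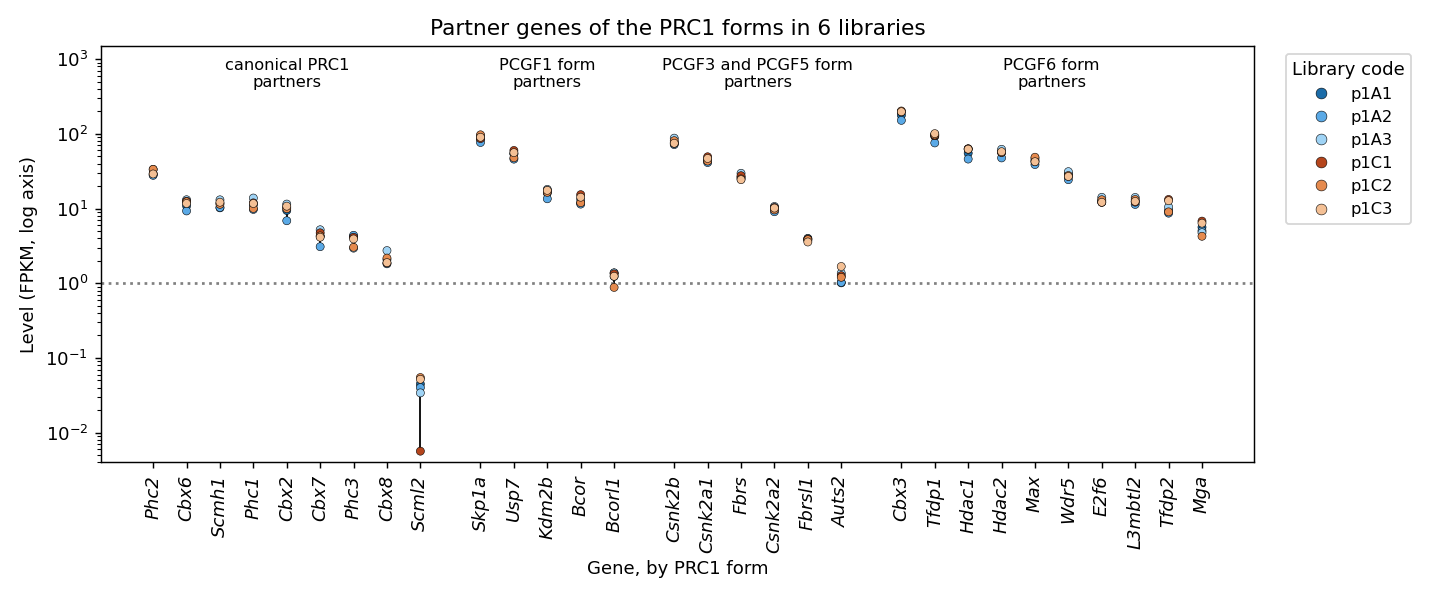
Level in FPKM, on a log axis, of the listed partner genes of each PRC1 form, with 1 point per library and a line across their range. Scml2 at no more than 0.0547 FPKM is the only gene far under the dotted line at 1 FPKM, and Bcorl1 and Auts2 lie on it.

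Each form thus had transcript for a RING gene, its PCGF gene, and partners in the RNA of these mixed cultures. Whether these transcripts stood in the same cells was not measured. For a canonical complex Bmi1 had more transcript than Pcgf2, and Phc2 had the highest median of the PHC genes. Of the PCGF genes of variant forms alone, Pcgf5 was the highest at a median of 12.7 FPKM and Pcgf1 the lowest at 4.32 FPKM.

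The spread of the genes between libraries was near that of detected genes at large. Between the highest and the lowest library the 10 genes had a median log2 range of 0.35, and the 10302 symbols with at least 1 FPKM throughout had a median of 0.40 and quartiles of 0.29 and 0.57. Pcgf1 and Pcgf2, which had the lowest levels, had the widest ranges, 0.59 and 0.60. Library p1A2 held the lowest value of 6 genes, Rnf2, Bmi1, Yaf2, Pcgf5, Pcgf6 and Pcgf2. The same library had the lowest B-lineage sum and the highest myeloid sum, given above, and the part of these in the low values was not tested.

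A second pattern ran through p1A3 and p1C2. Ring1 and Pcgf1 had their highest values in these libraries, while Rybp was lowest in p1A3 and Pcgf3 in p1C2. Across all detected genes with an annotated length, genes with transcripts of at least 5177 nt read low against those of at most 1962 nt in the same libraries. The difference of their median deviations was -0.19 in p1A3 and -0.27 in p1C2 on the log2 scale, and 0.08 to 0.18 in the other 4. The longest annotated transcripts of Pcgf1 and Ring1 have 918 and 2552 nt, and those of Rybp and Pcgf3 4503 and 7708 nt. Ring1 and Rybp thus lie between these limits and are neither short nor long by them. Yaf2, with 1870 nt, also read high against its own mean, by 0.08 in p1A3 and 0.13 in p1C2. Some members did not follow this order. Pcgf2, with 2485 nt, deviated from its own mean by -0.22 in p1C2, and Pcgf5, with 6443 nt, by 0.05 in p1A3 and -0.04 in p1C2. Pcgf3 deviated by only -0.01 in p1A3. The part of transcript length in the members' spread was not tested. Without p1A3 and p1C2 the ratio of Rybp to Yaf2 was -0.35 and that of Ring1 to Rnf2 -1.66 on the log2 scale.

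**Figure D5:**
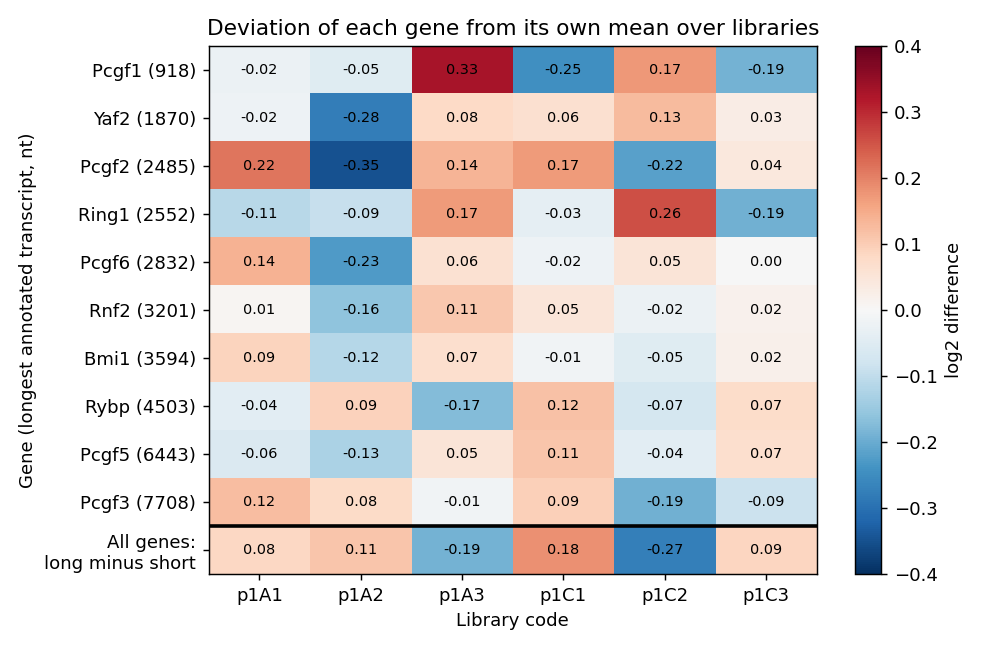
Log2(FPKM + 0.1) of each core gene in each library minus the gene's own mean over 6 libraries, with genes ordered by longest annotated transcript. The last row gives, over all detected genes, the median deviation of long genes minus that of short genes, -0.19 in p1A3 and -0.27 in p1C2.

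Pcgf1 had the widest range on the log2(FPKM + 0.1) scale, and its profile over the 6 libraries was compared with the 10673 symbols with a median of at least 1 FPKM. By root-mean-square distance of centred profiles the 5 nearest were Gm10653, Gcat, Cuta, Ier2 and Hras1, at distances of 0.045 to 0.059. All 5 had their highest value in p1A3 and their next highest in p1C2, as Pcgf1 did. With 6 libraries and this many candidates, close profiles are a description only.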

How the data were processed

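The authors deposited 1 matrix of FPKM values, 23021 rows by 6 libraries. Per the submitters' processing notes the tools were TopHat2 2.0.7, Cufflinks 2.0.0, Bowtie2 and FastQC. The notes list GRCm38 as well as mm9, with no role or order. Libraries came from total RNA with the Illumina TruSeq kit, per the labels' protocols. Neither read totals nor the strand setting are stated in the labels or header, and no counting interval is given.

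Rows of 1 symbol were summed. Paralogue ratios were log2((FPKM + 0.1)/(FPKM + 0.1)) within a library, tested by an exact two-sided sign-flip permutation over 6 libraries, with Benjamini-Hochberg adjustment over 5 pairs. The test was checked on simulated data. Where all 6 libraries share a sign, the p-value is the smallest that they allow, whatever the spread. It therefore does not grade the pairs. Genes that are not paralogues, such as Bmi1 and Yaf2, also kept their order in 6 of 6 libraries. The spread between these libraries may be technical. The 6 columns were mapped to 1 group, and the planned limma comparison of genotypes was not run because no column names a genotype. Positions and transcript lengths come from GENCODE M21 (GRCm38). Lengths were found for 9296 of 10302 detected symbols. Python 3.11.15, numpy 2.4.6 and pandas 2.3.3 were used.

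The members, partner lists and markers were chosen with earlier results of these data known. The text names the members, listed partners and markers, and the 5 symbols nearest in profile to the member of widest range. A partner gene and a marker gene are not reported here and stand in no count or sum.

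In rows under 0.05 FPKM, ratios to p1A1 piled up at fixed steps. Between 20.7% and 25.0% of them lay within 0.02 log2 units of the commonest ratio in p1A2, p1C1 and p1C3, but 4.57% in p1A3 and 8.62% in p1C2. The commonest log2 ratios were 0.095 in p1A2, -0.165 in p1C1 and -0.145 in p1C3, where a lower ratio means that 1 fragment was worth fewer FPKM, as in a deeper library.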

Additional observations from a re-analysis of the deposited data

How the results depend on the processing

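All 5 paralogue ratios kept their direction and their side of the 0.05 threshold with pseudocounts of 0.01 and 1 and on the TPM scale. This outcome was fixed, because a pseudocount or a common scale factor cannot change which gene of a pair is higher in a library. The same held with the highest row of each symbol alone, which was the only row of each member. Leaving out 1 library at a time also had to keep every direction, since every library shared the sign of each ratio. With 5 libraries a two-sided p cannot fall under 0.0625, so no ratio could pass. The mean log2 ratio then ran between -1.63 and -1.54 for Ring1 over Rnf2, 3.28 and 3.36 for Bmi1 over Pcgf2, -0.67 and -0.57 for Pcgf1 over Pcgf6, -0.84 and -0.77 for Pcgf3 over Pcgf5, and -0.53 and -0.41 for Rybp over Yaf2. Without both p1A3 and p1C2, chosen after seeing the data, these were -1.66, 3.30, -0.71, -0.75 and -0.35, each at the smallest p that 4 libraries allow, 0.125.

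All 10 genes stayed past 1 FPKM without any 1 library. Over all 6 libraries, 9 of them read at least 2 FPKM, without Pcgf2, and 8 at least 5 FPKM, without Pcgf1 as well. Rescaling to TPM raised every median level, to 5.16 TPM for Pcgf2 and 53.6 TPM for Rnf2. Scaling to a common upper quartile moved none by more than 1 SD. No paired analysis was possible because no column is tied to a genotype. The unknown total depth limits what can be said of Pcgf2, Bcorl1 and Auts2 near 1 FPKM.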

Other observations

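For all 10 genes the values of the columns coded A and those coded C interleaved, as the values by library given above show. The letters are not explained, so this was not tested and says nothing of a genotype. How many of all symbols interleave in this way is not given here, so it is not a trait of the 10 genes.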
